A study of Homo sapiens with 24 samples.

Results

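The machinery that carries newly made secretory and membrane proteins into the endoplasmic reticulum and on to the Golgi was described here through 46 genes. They were chosen by name, as subunits of the signal recognition particle and its receptor, the Sec61 translocon and its partners, the TRAP complex, signal peptidase, oligosaccharyltransferase, the COPII coat, 2 cargo receptors, the KDEL receptors and the COPI coat, out of 61533 genes in the deposited count tables. All 46 were found, and all 46 passed the filter on low counts in every cell line. RNA was sequenced from 4 human cancer lines, Cal27, A375, Fadu and Hth83, each labelled as wild type and as head and neck cancer cells. For each line, 3 CAP libraries came from cells exposed for 60 s to Piezo-CAP, in which a piezoelectric source makes a cold plasma, that is a gas ionised in part, at atmospheric pressure, and 3 Control libraries came from cells with no treatment (0 s), all at 24 h. Cal27 and Fadu are lines from squamous carcinomas of the tongue and hypopharynx, A375 is a melanoma line despite the label, and Hth83 carries the name of an anaplastic thyroid carcinoma line. Whether libraries of one group stem from independent cultures is not in the labels, and p-values therefore reflect the spread between libraries only, which may be technical.

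A protein bound for secretion is recognised at the ribosome by the signal recognition particle, handed to the receptor on the endoplasmic reticulum and threaded through the Sec61 channel, beside which the TRAP complex, signal peptidase and oligosaccharyltransferase act on it. Folded cargo leaves in vesicles coated by COPII, whose SEC24 subunits select the cargo. The COPI coat carries escaped resident proteins back from the Golgi, with the help of the KDEL receptors. Cells are known to adjust the amount of this machinery to their secretory load through transcription factors such as XBP1, ATF6, the CREB3 family and TFE3.

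Library depth was 27.9 to 49.5 M counts, and the lowest count of any of the 46 genes in a library was 163. Of 6 melanocyte markers, 2 stood above 10 CPM in A375, and the sum of the list was 1022 to 1064 CPM in CAP and 1214 to 1234 CPM in Control libraries of A375, against at most 12.4 CPM in any library of the other lines. SOX10 carried the A375 sum, with means of 958 CPM in CAP and 1147 CPM in Control libraries. PMEL and MLANA were lower there than in Fadu, with 1.2 and 0.961 CPM against 4.83 and 2.75 CPM in Control libraries. DCT and TYR had means of at most 1.87 CPM in A375. The sum of 6 squamous markers was 736 to 766 CPM in CAP and 1169 to 1181 CPM in Control libraries of Cal27, 2413 to 2663 CPM in CAP and 5308 to 5479 CPM in Control libraries of Fadu, and 1902 to 2053 CPM in CAP and 2048 to 2126 CPM in Control libraries of Hth83. In Cal27 all 6 squamous markers had a lower mean in CAP. In Fadu 4 of 6 did, and the sum was carried by KRT5, with 1326 ± 125 CPM in CAP and 3935 ± 82.8 CPM in Control libraries. There KRT6A had 202 ± 6.65 CPM in CAP and 154 ± 5.63 CPM in Control libraries and SFN had 322 ± 11.3 CPM in CAP and 258 ± 7.56 CPM in Control libraries (SD, n = 3 each). The part of these differences in the results on Cal27 and Fadu was not tested. Of 6 thyroid markers, 1 stood above 10 CPM in Hth83, with a list sum of 162 to 183 CPM in CAP and 125 to 127 CPM in Control libraries. It was PAX8, with means of 172 CPM in CAP and 126 CPM in Control libraries, against at most 21.5 CPM in the other lines. The other thyroid markers were near or at 0 there, 3 of them at 0 in its CAP libraries. Of the 6 squamous markers, 4 stood above 10 CPM in CAP and 5 in Control libraries of Hth83. KRT6A was the highest, with means of 985 and 1210 CPM. DSG3 (1.36 and 5.82 CPM) and KRT14 (4.4 and 10.1 CPM) were low there. Leukocyte markers summed to at most 8.69 CPM and fibroblast markers to at most 30.4 CPM in any library.

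Genes of this machinery are known to be induced together under secretory stress, so the 250 bases before each gene start were searched for short elements of that response. RefSeq windows of build GRCh38.p14 were used for 40 of the 46 genes and for 15843 protein-coding genes in all. KDELR2, RPN1, SEC24D, SPCS1, SRPRA and STT3B were not matched. A gene counted as holding an element where any of its listed windows did, on either strand. ACGTGGC, the core of the Golgi stress element to which TFE3 binds, was found before 17 of 40 genes (42.5%), against 4.21% of all protein-coding genes. TGACGTG, the core of the unfolded protein response element to which XBP1 binds, was found before 8 of 40 (20%), against 2.36% of all, and the elements can share letters, as in SEC24A and KDELR3 below. The endoplasmic reticulum stress element ERSE was found before 0 of 40, against 0.133% of all, and its variant ERSE-II before 0 of 40, against 0.0884% of all. The median GC content was 66.4% in the 51 windows of these genes and 62% over all 22199 windows. A match describes the letters and is not a binding site.

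Windows are shown for 4 genes that hold a match and whose responses are described further on. Each reads 5′ to 3′ on the strand of the gene, and its last base lies next to the gene start. Capitals mark the matches, among which GCCACGT is ACGTGGC read on the other strand and CACGTCA is TGACGTG read on the other strand. The windows lie at chr6:7313200-7313449 on the minus strand for SSR1, at chr5:134648535-134648784 on the plus strand for SEC24A, at chr22:38467846-38468095 on the plus strand for KDELR3 and at chr3:139389681-139389930 on the minus strand for COPB2.
SSR1: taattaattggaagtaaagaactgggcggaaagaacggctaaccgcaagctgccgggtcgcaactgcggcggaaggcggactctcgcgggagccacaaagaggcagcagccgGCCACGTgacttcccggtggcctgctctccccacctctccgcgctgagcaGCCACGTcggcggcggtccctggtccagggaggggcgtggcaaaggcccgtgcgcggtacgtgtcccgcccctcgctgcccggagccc
SEC24A: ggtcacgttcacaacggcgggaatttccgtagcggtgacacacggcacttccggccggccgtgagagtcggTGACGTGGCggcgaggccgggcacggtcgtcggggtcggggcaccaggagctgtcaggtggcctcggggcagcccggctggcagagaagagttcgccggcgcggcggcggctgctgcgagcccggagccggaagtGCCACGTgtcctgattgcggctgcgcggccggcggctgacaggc
KDELR3: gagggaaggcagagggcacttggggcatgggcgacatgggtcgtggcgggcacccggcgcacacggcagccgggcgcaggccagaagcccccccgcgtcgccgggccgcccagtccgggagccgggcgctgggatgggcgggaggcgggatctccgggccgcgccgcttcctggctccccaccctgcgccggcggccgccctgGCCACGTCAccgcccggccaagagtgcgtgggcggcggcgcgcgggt
COPB2: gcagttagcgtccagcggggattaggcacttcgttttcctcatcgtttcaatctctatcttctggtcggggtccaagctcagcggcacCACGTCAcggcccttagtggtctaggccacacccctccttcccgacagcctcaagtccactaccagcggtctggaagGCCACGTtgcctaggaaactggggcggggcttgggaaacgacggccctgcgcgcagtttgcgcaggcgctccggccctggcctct

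The response of the 46 genes to CAP differed by line. In Hth83, 40 of 46 fell and 1 rose, against 24.2% and 25.9% of the 17279 genes tested in that line, and the median log2 fold change was -0.44, against 0.00 over all genes tested. In A375, 34 rose and 4 fell, against 25.7% and 24.8% of 19604 genes tested, with a median of 0.20 against -0.02. Fadu was divided, with 18 genes that rose and 16 that fell, against 26.3% and 27% of 19152 genes tested, and a median of -0.01 against 0.01. Cal27 had 11 genes that rose and 22 that fell, against 21.9% and 23.2% of 17371 genes tested, with a median of -0.11 against -0.00. A gene is said to have risen or fallen where the quasi-likelihood test of edgeR, adjusted over all genes tested in the line, gave a p under 0.05 for 3 CAP and 3 Control libraries. CPM are counts scaled to library size with TMM within a line. Fold changes are CAP over Control and are given with their SE. In either direction, 89.1% of the 46 genes were called in Hth83, 82.6% in A375, 73.9% in Fadu and 71.7% in Cal27, against 50.1%, 50.5%, 53.3% and 45.1% of the genes tested. The 46 genes had at least 163 counts in every library. The genes tested include scarcer ones, and no share over all genes given here is matched for level. Among genes with a CPM of at least 1 in 3 libraries, 7658 of 14241 were called in Cal27 and 9375 of 15618 in A375. In Fadu 9736 of 15252 were called, and in Hth83 8242 of 13895. The part of level in these shares was not tested. In bulk RNA, fewer cells of one kind and less RNA per cell cannot be told apart.

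The libraries of the groups were often apart. In Hth83 all 3 CAP libraries lay above every Control library in 1 gene and below every one in 41, against 29.2% and 27.9% of the genes tested. In A375 all 3 CAP libraries lay above every Control library in 35 genes and below every one in 4, against 28.9% and 29% of the genes tested. In Fadu all 3 CAP libraries lay above every Control library in 19 genes and below every one in 19, against 29.2% and 29.4% of the genes tested. In Cal27 all 3 CAP libraries lay above every Control library in 13 genes and below every one in 22, against 26% and 26.7% of the genes tested.

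The direction in Cal27 depended on the scaling. There the median of the 46 genes was -0.02 with library size alone (16 called higher and 14 lower), 0.12 in limma on the deposited TPM (23 higher and 1 lower) and 0.07 in limma on TPM recomputed with exon lengths (22 higher and 6 lower). These scalings moved the median of all genes in Cal27 by 0.082, 0.198 and 0.155, and relative to all genes the median of the 46 was -0.11, -0.08 and -0.09. On deposited TPM without a filter on low values, with 33650 genes tested, it was 0.04. All 11 genes that rose in Cal27 were called higher under each of these scalings. Of the 22 that fell, 14 were called lower with library size alone, 1 (SSR4) on deposited TPM and 6 (COPE, DDOST, SEC13, SEC61B, SSR2, SSR4) on exon-length TPM, and SPCS2 was called higher on deposited TPM. In Hth83 at least 38 of the 40 falls were called lower under each of the same scalings. In A375 the calls were 27 higher and 6 lower with library size alone, and 21 higher and 6 lower on deposited TPM. In Fadu they were 25 higher and 10 lower with library size alone, which moved the median of all genes there by 0.104. For the single complexes and lists that follow, the other scalings are library size alone, limma on deposited TPM and limma on exon-length TPM, given where a count or median moved by over 1.5 times or turned sign.

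**Figure D1:**
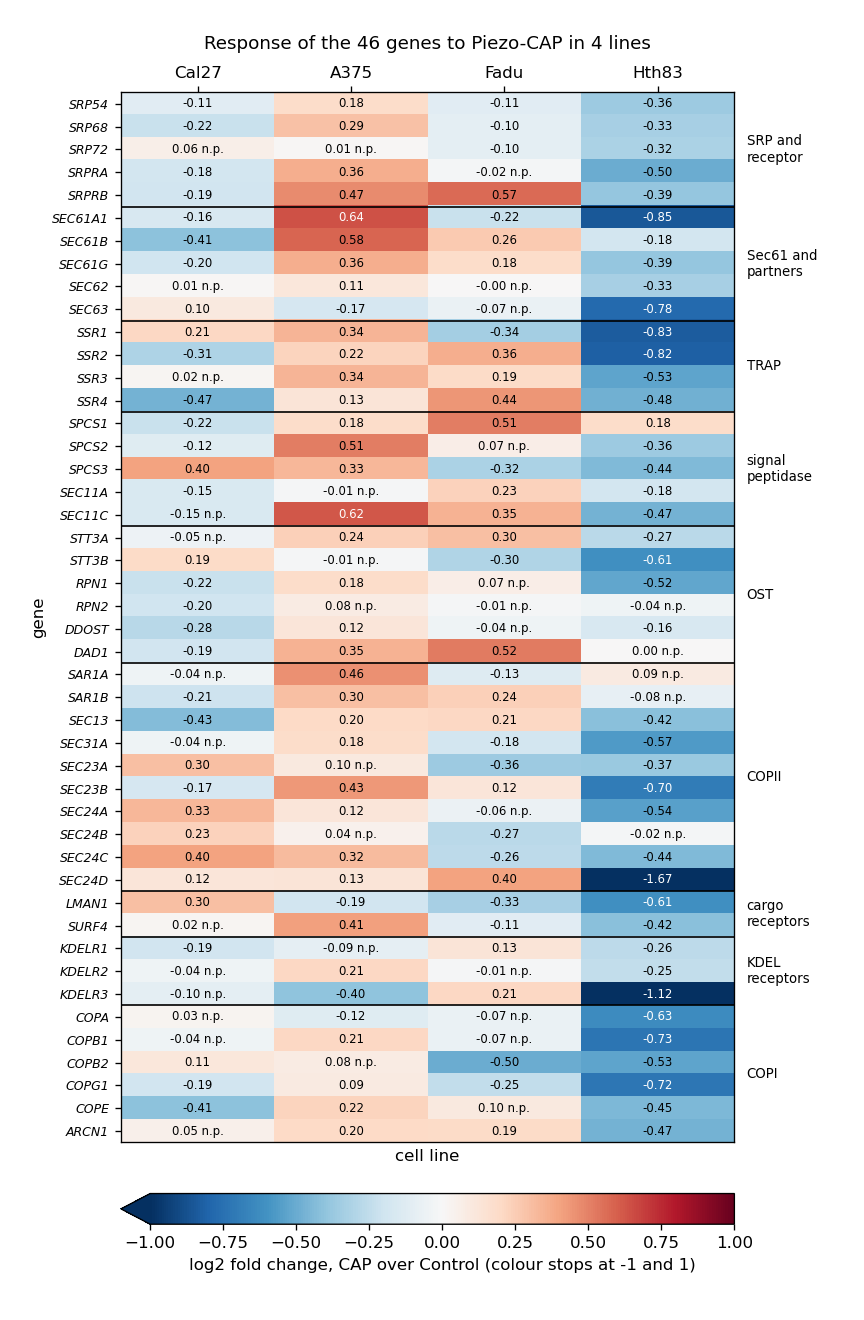
Log2 fold change of each of the 46 genes (down the page, grouped by complex) in the 4 lines (across), CAP over Control, with 3 libraries per group; red is higher and blue is lower in CAP, and n.p. marks genes that did not pass the adjusted p of 0.05. In Hth83 the 1 gene that rose is SPCS1 (0.18), A375 is mostly red, and Cal27 (whose median turns to 0.12 on deposited TPM) and Fadu hold both colours.

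Summed over the 46 genes, the level per exon length in Hth83 was 8582, 8505 and 8678 TPM in CAP libraries and 11023, 11069 and 11435 TPM in Control libraries. In A375 the sum was 7938, 7849 and 7930 TPM in CAP libraries and 7306, 7400 and 7367 TPM in Control libraries. The groups did not overlap in either line. The Fadu sum was 7523, 7657 and 7443 TPM in CAP libraries and 7109, 7222 and 7145 TPM in Control libraries, and the Cal27 sum was 8278, 8464 and 8504 TPM in CAP libraries and 8057, 7989 and 7977 TPM in Control libraries. On this scale all 3 CAP libraries of Fadu and of Cal27 were above every Control library. The share of raw counts that fell on the 46 genes was 0.8311% to 0.8439% in CAP and 1.115% to 1.163% in Control libraries of Hth83, and 0.8004% to 0.8233% in CAP and 0.7909% to 0.8019% in Control libraries of Cal27, ranges that overlap in Cal27.

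**Figure D2:**
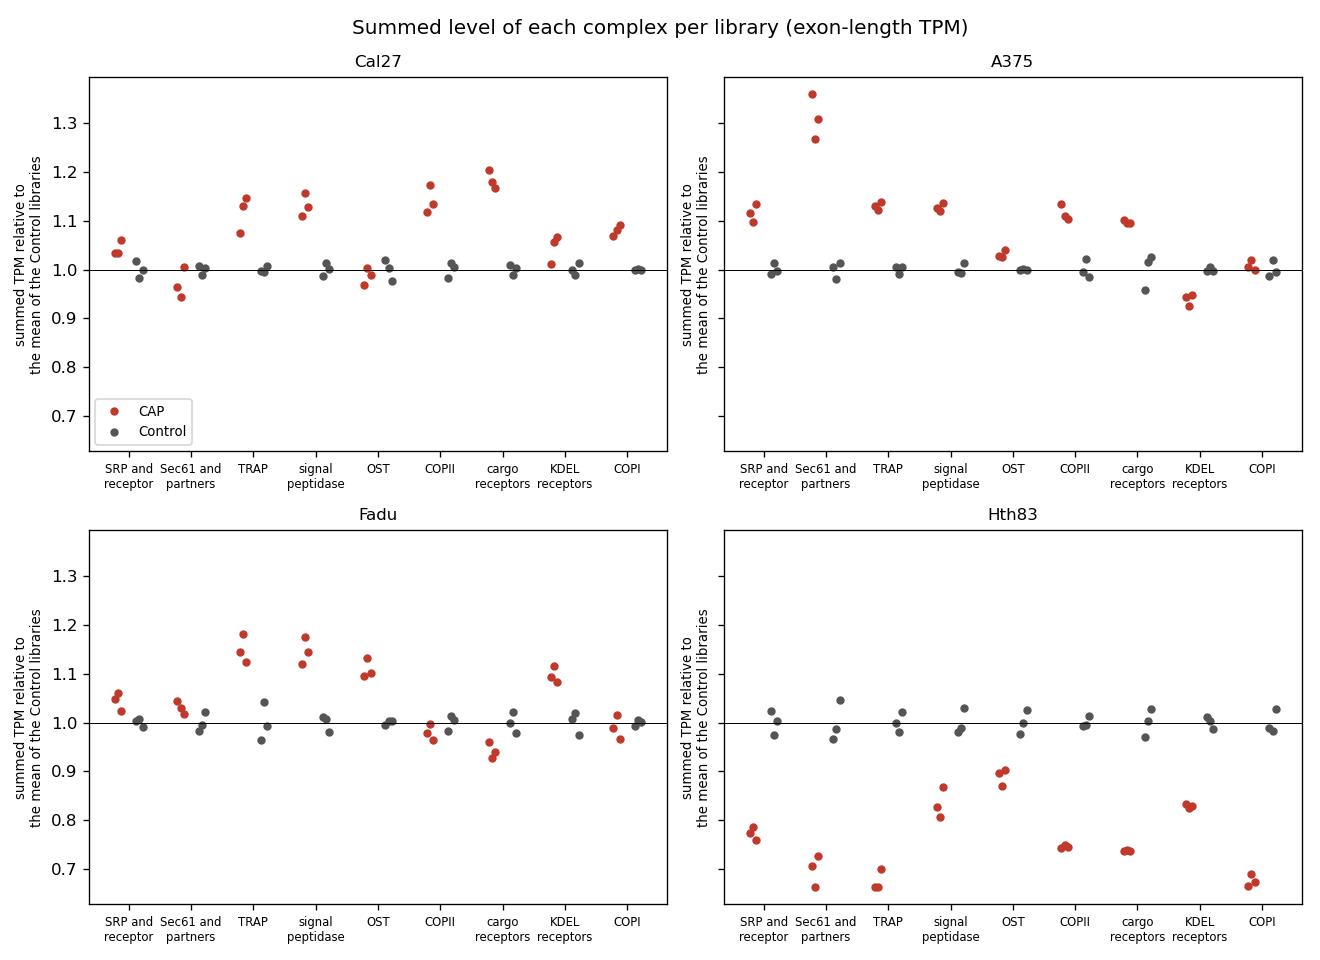
Summed exon-length TPM of each complex in each library, divided by the mean of the Control libraries of the same line (no unit; the axis does not start at 0); red points are CAP and grey points are Control libraries, 3 each. In Hth83 the CAP libraries lie below the Control libraries in every complex drawn, and in A375 the Sec61 group is raised, with 839, 782 and 808 TPM in CAP against 621, 606 and 626 TPM in Control libraries.

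Both the signal recognition particle and its receptor were lower in Hth83 and mostly higher in A375. Of their 5 genes, 5 fell in Hth83 (median log2 fold change -0.36) and 4 rose in A375 (0.29, with 3 higher and 0 lower and a median of 0.19 to 0.21 under the other scalings). In Cal27 4 fell (-0.18, with 1 higher and 0 to 3 lower and a median of -0.10 to 0.05 under the other scalings). In Fadu 1 rose and 3 fell (-0.10, with 1 to 2 higher and 0 lower and a median of -0.08 to 0.01 under the other scalings). The Fadu falls were not called under the other scalings, among them those of SRP54, lost without Control library 2 (edgeR adjusted p 0.0593), and SRP68, lost without CAP library 3 or Control library 1, 2 or 3 (edgeR adjusted p 0.0529 to 0.256). SRP72 also fell there, a call lost without CAP library 3 or Control library 1, 2 or 3 (edgeR adjusted p 0.0614 to 0.106). The fall of SRP54 in Cal27 was lost without CAP library 1 or 2 or Control library 1 (edgeR adjusted p 0.0959 to 0.195). SRPRA, the receptor subunit that docks the particle, had 321, 326 and 310 CPM in CAP libraries and 467, 433 and 452 CPM in Control libraries of Hth83. Its level in A375 was 391, 381 and 386 CPM in CAP libraries and 299, 302 and 302 CPM in Control libraries. CAP was below every Control library in Hth83 and above every one in A375, with log2 fold changes of -0.50 ± 0.04 (edgeR adjusted p = 5.18e-11) and 0.36 ± 0.03 (edgeR adjusted p = 2.15e-10). In Cal27 the gene had 126, 120 and 125 CPM in CAP libraries and 139, 141 and 141 CPM in Control libraries (-0.18 ± 0.04, edgeR adjusted p = 0.000357), a difference whose sign turned on deposited TPM, and in Fadu 174, 175 and 171 CPM in CAP libraries and 182, 173 and 170 CPM in Control libraries, with overlapping groups (-0.02 ± 0.04). SRPRB, the membrane anchor of the receptor, had the largest rise of the 46 genes in Fadu, with 90.1, 93.9 and 88.3 CPM in CAP libraries and 60.3, 64.3 and 59.3 CPM in Control libraries (0.57 ± 0.05, edgeR adjusted p = 4.04e-19). It also rose in A375 (0.47) and fell in Hth83 (-0.39), and 11.8% of its exon bases are shared with RAB6B and TF. The protein subunits of the particle, SRP54, SRP68 and SRP72, fell in Hth83 by similar amounts (-0.36, -0.33 and -0.32), and SRP72 did not pass in A375 (0.01).

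The Sec61 group held the largest rise of the 46 genes in A375. All 5 genes of the group fell in Hth83 (median -0.39). In A375 4 rose and 1 fell (0.36). In Fadu 2 rose and 1 fell (-0.00, with 2 to 3 higher and 1 lower and a median of 0.02 to 0.10 under the other scalings). In Cal27 1 rose and 3 fell (-0.16, with 1 to 2 higher and 0 to 2 lower and a median of -0.08 to 0.07 under the other scalings). SEC61A1, which encodes the pore, had 400, 340 and 417 CPM in CAP libraries and 675, 668 and 745 CPM in Control libraries of Hth83. In A375 it had 473, 419 and 423 CPM in CAP libraries and 278, 283 and 281 CPM in Control libraries. The groups were apart in both lines, in opposite directions, with log2 fold changes of -0.85 ± 0.07 (edgeR adjusted p = 2.01e-08) and 0.64 ± 0.04 (edgeR adjusted p = 1.96e-14). The gene fell in Fadu, with 345, 335 and 332 CPM in CAP libraries and 394, 387 and 398 CPM in Control libraries (-0.22 ± 0.03, edgeR adjusted p = 2.29e-09), and had 482, 463 and 484 CPM in CAP libraries and 540, 542 and 520 CPM in Control libraries in Cal27 (-0.16 ± 0.03, edgeR adjusted p = 0.000137), where the sign turned on both TPM scales.

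The small subunits of the channel did not follow the pore gene in Fadu. SEC61B, the beta subunit, rose in A375 with 52.8, 46.7 and 52.3 CPM in CAP libraries and 34.1, 31.7 and 35.8 CPM in Control libraries (0.58 ± 0.06, edgeR adjusted p = 2.77e-09). In Fadu SEC61B rose (0.26) and so did SEC61G, the gamma subunit (0.18), while SEC61A1 fell. In Cal27 SEC61B had 90.7, 79.6 and 92.8 CPM in CAP libraries and 120, 113 and 117 CPM in Control libraries (-0.41 ± 0.05, edgeR adjusted p = 5.36e-08), and in Hth83 it fell less than SEC61A1 (-0.18). SEC63, which couples the channel to the chaperone BiP, was 1 of the 4 genes that fell in A375, with 106, 110 and 115 CPM in CAP libraries and 131, 114 and 127 CPM in Control libraries (-0.17 ± 0.05, edgeR adjusted p = 0.00268), and the groups overlapped. Its fall in Hth83 was larger (-0.78). SEC62, the partner of SEC63, fell in Hth83 (-0.33) and rose in A375 (0.11), a call lost without CAP library 3 or Control library 1, 2 or 3 (edgeR adjusted p 0.0549 to 0.228). The rise of SEC63 in Cal27 was lost without CAP library 2 or 3 or Control library 1 or 2 (edgeR adjusted p 0.0546 to 0.134).

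TRAP, a complex that assists translocation beside the channel, had all 4 subunits lower in Hth83 (median -0.68) and all 4 higher in A375 (0.28, with 3 higher and 0 lower and a median of 0.18 to 0.21 under the other scalings). The rise of SSR4 in A375 (0.13 ± 0.05) was not called with library size alone or on either TPM scale, and it was lost without CAP library 1 or 3 or Control library 2 or 3 (edgeR adjusted p 0.0526 to 0.216). SSR1 had 209, 202 and 215 CPM in CAP libraries and 368, 360 and 383 CPM in Control libraries of Hth83, and 194, 192 and 177 CPM in CAP libraries and 232, 239 and 239 CPM in Control libraries of Fadu. In A375 it had 137, 136 and 134 CPM in CAP libraries and 105, 110 and 107 CPM in Control libraries, and in Cal27 199, 190 and 203 CPM in CAP libraries and 173, 166 and 174 CPM in Control libraries. CAP was below Control in Hth83 and Fadu and above it in A375 and Cal27, with no overlap in any of the 4 lines. The log2 fold changes were -0.83 ± 0.04 in Hth83 (edgeR adjusted p = 9.08e-16), -0.34 ± 0.04 in Fadu (edgeR adjusted p = 5.98e-14), 0.34 ± 0.04 in A375 (edgeR adjusted p = 1.41e-08) and 0.21 ± 0.04 in Cal27 (edgeR adjusted p = 5.58e-05). SSR2 fell as much in Hth83, with 90.9, 83.3 and 93.8 CPM in CAP libraries and 163, 150 and 160 CPM in Control libraries (-0.82 ± 0.05, edgeR adjusted p = 4.94e-14). In Fadu SSR2 moved against SSR1, with 99.1, 99.4 and 89.8 CPM in CAP libraries and 74.5, 78.1 and 71.8 CPM in Control libraries (0.36 ± 0.05, edgeR adjusted p = 7.17e-11). In A375 it had 238, 231 and 239 CPM in CAP libraries and 205, 202 and 201 CPM in Control libraries (0.22 ± 0.04), and in Cal27 61.8, 57.4 and 56.1 CPM in CAP libraries and 74.1, 72.7 and 71.1 CPM in Control libraries (-0.31 ± 0.05).

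The other TRAP subunits also moved against SSR1 in Fadu. SSR3 had 320, 327 and 350 CPM in CAP libraries and 487, 466 and 490 CPM in Control libraries of Hth83 (-0.53 ± 0.04, edgeR adjusted p = 2.06e-11). In A375 it had 156, 153 and 159 CPM in CAP libraries and 123, 121 and 127 CPM in Control libraries (0.34 ± 0.04), and in Fadu 254, 268 and 255 CPM in CAP libraries and 217, 241 and 221 CPM in Control libraries (0.19 ± 0.04). In Cal27 SSR3 had 889, 937 and 949 CPM in CAP libraries and 908, 914 and 915 CPM in Control libraries, with overlapping groups (0.02 ± 0.03). SSR4 had the largest fall of the 46 genes in Cal27, with 61.7, 62.2 and 68.2 CPM in CAP libraries and 88.1, 92.2 and 86.5 CPM in Control libraries (-0.47 ± 0.05, edgeR adjusted p = 2.66e-09), and it was the 1 gene of the 22 whose fall there was called with library size alone, with RLE size factors and on both TPM scales. It rose in Fadu (0.44) and fell in Hth83 (-0.48). For the complex in Cal27 1 gene rose and 2 fell (median -0.15, with 2 higher and 1 to 2 lower and a median of -0.06 to 0.09 under the other scalings). In Fadu 3 rose and 1 fell (0.28).

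**Figure D3:**
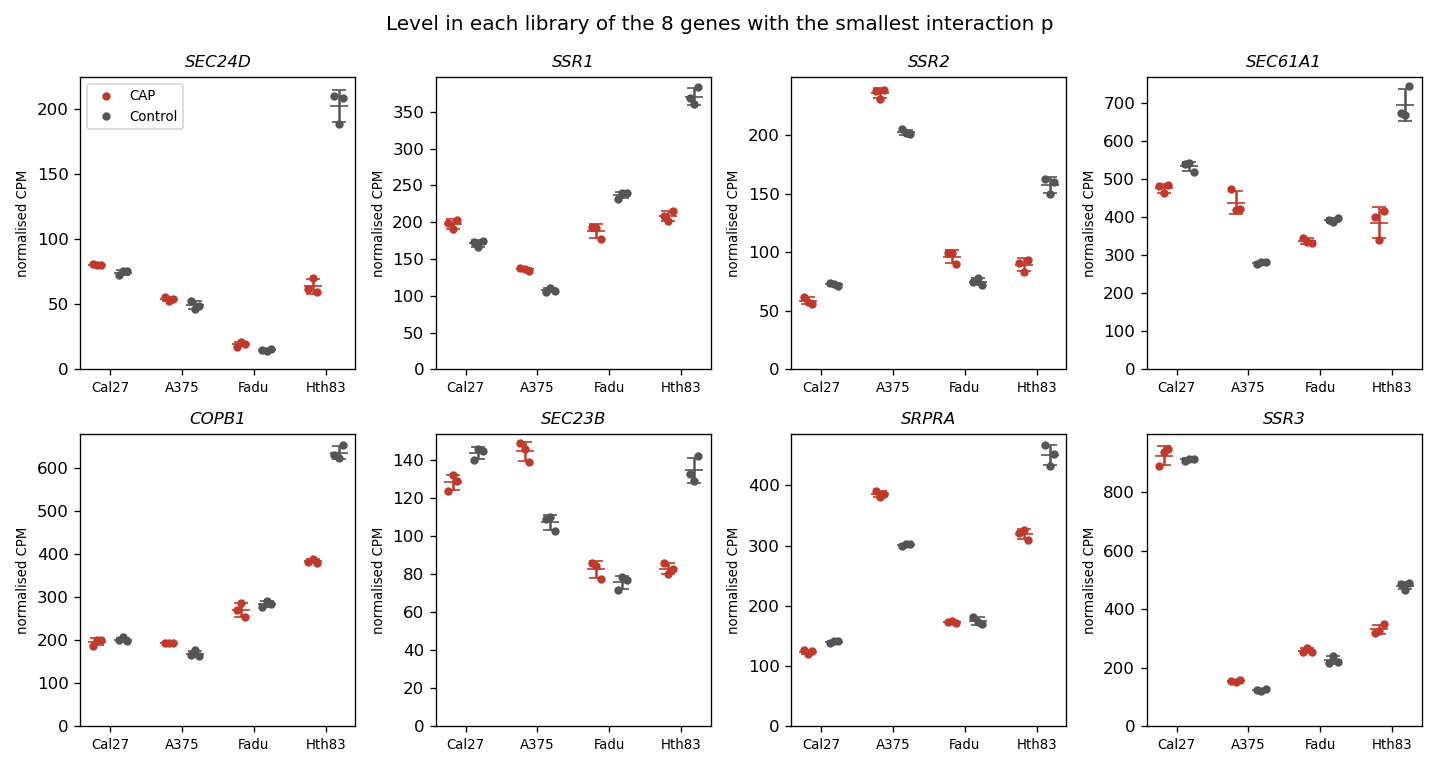
CPM scaled by TMM within each line (from 0) of the 8 genes with the smallest p for a difference between the lines, in each library of the 4 lines; red points are CAP and grey points are Control libraries (3 each), and bars show the mean ± SD. SSR1 is higher in CAP in Cal27 and A375 and lower in Fadu and Hth83, and SEC24D stands out by its fall in Hth83 (-1.67).

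Signal peptidase, which removes the signal peptide, was higher in A375 and, but for SPCS1, lower in Hth83. Of its 5 genes, 4 fell and 1 rose in Hth83 (median -0.36). In A375 4 rose (0.33). In Fadu 3 rose and 1 fell (0.23). In Cal27 1 rose and 3 fell (-0.15, with 1 to 2 higher and 0 lower and a median of -0.06 to 0.09 under the other scalings). SPCS3, an accessory subunit, had the largest rise in Cal27, with 228, 262 and 260 CPM in CAP libraries and 189, 197 and 184 CPM in Control libraries (0.40 ± 0.04, edgeR adjusted p = 3.16e-08), and it fell in Fadu (-0.32) and Hth83 (-0.44). SPCS1, another accessory subunit, rose in Fadu with 73.9, 76.3 and 83 CPM in CAP libraries and 54.8, 53.5 and 55.1 CPM in Control libraries (0.51 ± 0.05, edgeR adjusted p = 6.57e-16). In Hth83 SPCS1 had 52, 56.1 and 54.2 CPM in CAP libraries and 48.2, 46.3 and 49 CPM in Control libraries (0.18 ± 0.06, edgeR adjusted p = 0.0149). That rise was not called without CAP library 2 (adjusted p = 0.0572) or without Control library 2 (adjusted p = 0.0797) in the same edgeR test. Exons of GLT8D1 and NEK4, on the other strand, cover 58.1% of the exon bases of SPCS1, and its counts are uncertain because no source used here states whether strand was used in counting. SEC11C, 1 of 2 alternative catalytic subunits, rose in A375 with 25.4, 21.5 and 23.9 CPM in CAP libraries and 16.4, 15.7 and 13.8 CPM in Control libraries (0.62 ± 0.08, edgeR adjusted p = 2.85e-07). The other catalytic subunit, SEC11A, had -0.01 ± 0.04 there. SPCS2 rose in A375 (0.51) and fell in Hth83 (-0.36), and its fall in Cal27 was lost without CAP library 3 or Control library 2 (edgeR adjusted p 0.0882 to 0.128).

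Oligosaccharyltransferase, which attaches the N-glycan to the passing chain, had a smaller median in Hth83 than the groups above. There 4 of 6 genes fell (median -0.22). In A375 4 rose (0.15, with 1 to 3 higher and 1 lower and a median of 0.06 to 0.08 under the other scalings). In Fadu 2 rose and 1 fell (0.03, with 3 to 4 higher and 1 lower and a median of 0.05 to 0.13 under the other scalings). In Cal27 1 rose and 4 fell (-0.19, with 1 to 2 higher and 0 to 3 lower and a median of -0.11 to 0.04 under the other scalings). STT3B, the catalytic subunit that can act after translation, had the largest fall of the complex in Hth83 (-0.61 ± 0.05, edgeR adjusted p = 1.57e-12), and STT3A, the catalytic subunit of the translocon-bound enzyme, fell less (-0.27 ± 0.05). In Fadu the catalytic subunits moved apart, with STT3A higher (0.30 ± 0.04, edgeR adjusted p = 7.91e-12) and STT3B lower (-0.30 ± 0.03, edgeR adjusted p = 1.91e-13). DAD1, a small structural subunit, rose in Fadu with 95, 103 and 105 CPM in CAP libraries and 68.9, 69.4 and 72.7 CPM in Control libraries (0.52 ± 0.05, edgeR adjusted p = 6.2e-18), and its groups overlapped in Hth83 (0.00 ± 0.06). RPN1 and DDOST, structural subunits, fell in Hth83 (-0.52 and -0.16), whereas RPN2 did not pass there (-0.04). RPN2 varied least between the lines, with 0.28 between its highest and lowest log2 fold change.

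The COPII coat held the largest change among the 46 genes, that of SEC24D, 1 of 4 SEC24 proteins that bind cargo. SEC24D had 61.4, 70.4 and 59.3 CPM in CAP libraries and 210, 188 and 208 CPM in Control libraries of Hth83. Every CAP library held less than any Control library, and the log2 fold change was -1.67 ± 0.06, a fold of 0.315 (edgeR adjusted p = 1.07e-18). In Fadu, where the gene was scarce, it rose, with 17.5, 21.1 and 19.4 CPM in CAP libraries and 14.6, 14.1 and 15.3 CPM in Control libraries (0.40 ± 0.09, edgeR adjusted p = 5.8e-05). Its rises in Cal27, with 81, 79.9 and 80.3 CPM in CAP libraries and 72.3, 75.3 and 75.1 CPM in Control libraries (0.12 ± 0.05, edgeR adjusted p = 0.0465), and in A375, with 55.7, 52.2 and 54.3 CPM in CAP libraries and 52.4, 46.6 and 48.6 CPM in Control libraries (0.13 ± 0.05, edgeR adjusted p = 0.0452), were close to the threshold, and the groups overlapped in A375. The call in Cal27 was lost without CAP library 1, 2 or 3 or Control library 1 or 2 (edgeR adjusted p 0.07 to 0.167), and that in A375 without CAP library 1 or 3 or Control library 2 or 3 (edgeR adjusted p 0.0953 to 0.213). SEC24C, its closest relative, rose in Cal27 with 92.4, 84.8 and 81.2 CPM in CAP libraries and 64.6, 62.6 and 69.3 CPM in Control libraries (0.40 ± 0.05, edgeR adjusted p = 2.36e-07), and fell in Hth83 (-0.44) and Fadu (-0.26). SEC24A, whose window is shown above, rose in Cal27 with 61.6, 70.4 and 66.7 CPM in CAP libraries and 52.6, 55.3 and 50 CPM in Control libraries (0.33 ± 0.06, edgeR adjusted p = 1.32e-05) and fell in Hth83 (-0.54). SEC24B did not pass in Hth83 (-0.02 ± 0.05), next to the 3 relatives that fell. The rise of SEC24A in A375 was lost without CAP library 3 or Control library 1 or 3 (edgeR adjusted p 0.0839 to 0.115). Over the 10 genes of the coat, 7 fell in Hth83 (median -0.43, with 0 to 1 higher and 7 lower and a median of -0.39 to -0.37 under the other scalings). In A375 8 rose (0.19, with 5 to 6 higher and 0 lower and a median of 0.10 to 0.12 under the other scalings). In Cal27 5 rose and 3 fell (0.04, with 5 to 7 higher and 0 to 1 lower and a median of 0.12 to 0.25 under the other scalings). In Fadu 4 rose and 5 fell (-0.09, with 2 to 4 higher and 3 lower and a median of -0.07 to 0.01 under the other scalings).

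SEC23A and SEC23B, alternative subunits of the inner coat, also parted. SEC23B had 85.8, 80.2 and 83 CPM in CAP libraries and 133, 129 and 142 CPM in Control libraries of Hth83 (-0.70 ± 0.05, edgeR adjusted p = 1.45e-12), and 149, 146 and 139 CPM in CAP libraries and 109, 110 and 103 CPM in Control libraries of A375 (0.43 ± 0.04, edgeR adjusted p = 5.4e-10). The gene thus fell in Hth83 and rose in A375 with no overlap of the groups. In Fadu SEC23A fell, with 129, 131 and 120 CPM in CAP libraries and 164, 165 and 160 CPM in Control libraries (-0.36 ± 0.04, edgeR adjusted p = 7.71e-14), while SEC23B had 85.7, 84.5 and 77.6 CPM in CAP libraries and 71.6, 78.6 and 76.9 CPM in Control libraries (0.12 ± 0.05, edgeR adjusted p = 0.0198) and overlapping groups, a call lost without CAP library 1 or 2 or Control library 1 (edgeR adjusted p 0.0687 to 0.147). In Cal27 SEC23A rose (0.30), and SEC23B had 124, 132 and 129 CPM in CAP libraries and 140, 146 and 145 CPM in Control libraries (-0.17 ± 0.04, with the sign turned on both TPM scales). SEC13, of the outer coat, had 50, 50.1 and 50.3 CPM in CAP libraries and 70.2, 71.5 and 60.6 CPM in Control libraries of Cal27 (-0.43 ± 0.06, edgeR adjusted p = 2.49e-07), whereas its partner SEC31A did not pass there (-0.04). SAR1A and SAR1B, the GTPases that start the coat, did not pass in Hth83 (0.09 and -0.08) and rose in A375 (0.46 and 0.30). The call of SAR1A in Fadu (-0.13) was lost without CAP library 3 or Control library 2 (edgeR adjusted p 0.0753 to 0.081).

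LMAN1, a lectin that carries glycoproteins such as coagulation factors out of the endoplasmic reticulum, was lower in 3 lines and higher in Cal27, with no overlap of the groups in any line. It was 1 of the 4 genes that fell in A375, with 213, 220 and 235 CPM in CAP libraries and 250, 256 and 256 CPM in Control libraries (-0.19 ± 0.04, edgeR adjusted p = 9.74e-05). It fell in Hth83 (-0.61) and Fadu (-0.33) and rose in Cal27 (0.30). SURF4, a receptor for soluble cargo, rose in A375 (0.41), fell in Hth83 (-0.42) and Fadu (-0.11), and did not pass in Cal27 (0.02). The pair had 1 rise in Cal27 (median 0.16). Under the other scalings 2 were called higher and 0 lower there, with a median of 0.24 to 0.39, so that SURF4 was called higher. The pair's A375 median of 0.11 was 0.02 to 0.04 under them. Its 2 Fadu falls (-0.22) became 1 to 2, with a median of -0.20 to -0.12. There SURF4 was not called lower with library size alone or on exon-length TPM.

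The KDEL receptors retrieve chaperones that escape from the endoplasmic reticulum, and KDELR3, the scarcest of them, changed most. In Hth83 KDELR3 had 11.2, 12.4 and 11.5 CPM in CAP libraries and 25.7, 24.3 and 26 CPM in Control libraries (-1.12 ± 0.09, edgeR adjusted p = 6.95e-12). Its fall in A375 was the largest of the 46 genes there, with 17.2, 17.3 and 16.3 CPM in CAP libraries and 22.4, 22.8 and 21.7 CPM in Control libraries (-0.40 ± 0.08, edgeR adjusted p = 4.99e-05). The groups did not overlap in either line, and the gene rose in Fadu (0.21), a call lost without CAP library 2 or 3 or Control library 3 (edgeR adjusted p 0.0651 to 0.0798). KDELR1 and KDELR2, the abundant receptors, fell less in Hth83 (-0.26 and -0.25). In A375 KDELR2 rose (0.21) and KDELR1 did not pass (-0.09). There 1 rose and 1 fell (median -0.09, with 1 higher, 2 lower and a median of -0.19 to -0.17 under the other scalings). KDELR1 was called lower under each of those. Fadu had 2 rises (0.13, with 2 to 3 higher, 0 lower and a median of 0.15 to 0.24 under the other scalings). In Cal27 1 of the 3 fell (median -0.10, with 0 to 1 higher and 0 to 1 lower and a median of -0.02 to 0.11 under the other scalings).

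All 6 COPI genes fell in Hth83, with log2 fold changes from -0.73 for COPB1 to -0.45 for COPE (median -0.58). COPB1, the beta subunit, had 383, 389 and 380 CPM in CAP libraries and 632, 624 and 655 CPM in Control libraries of Hth83 (-0.73 ± 0.04, edgeR adjusted p = 4.28e-15), and 195, 195 and 195 CPM in CAP libraries and 165, 177 and 164 CPM in Control libraries of A375 (0.21 ± 0.04, edgeR adjusted p = 2.72e-05). It was thus below every Control library in Hth83 and above every one in A375. The groups overlapped in Cal27, with 187, 202 and 200 CPM in CAP libraries and 200, 207 and 198 CPM in Control libraries (-0.04 ± 0.04), although the CAP libraries lay above the Control libraries there on both TPM scales, and in Fadu, with 271, 286 and 255 CPM in CAP libraries and 278, 291 and 284 CPM in Control libraries (-0.07 ± 0.03). COPA, the alpha subunit, was 1 of the 4 genes that fell in A375 (-0.12 ± 0.03). COPB2, the beta-prime subunit, had the largest fall of the 46 genes in Fadu, with 157, 153 and 144 CPM in CAP libraries and 218, 214 and 212 CPM in Control libraries (-0.50 ± 0.04, edgeR adjusted p = 1.77e-22), whereas ARCN1, which encodes the delta subunit, rose there (0.19). COPE, the epsilon subunit, had 48.2, 49.2 and 52.6 CPM in CAP libraries and 64.9, 71.3 and 63.6 CPM in Control libraries of Cal27 (-0.41 ± 0.06, edgeR adjusted p = 2.58e-07). Over the 6 genes, 4 rose and 1 fell in A375 (median 0.15, with 1 to 3 higher and 1 lower and a median of 0.05 to 0.07 under the other scalings). In Cal27 1 rose and 2 fell (-0.00, with 3 to 4 higher and 0 to 2 lower and a median of 0.08 to 0.23 under the other scalings). In Fadu 1 rose and 2 fell (-0.07, with 1 to 2 higher and 2 lower and a median of -0.05 to 0.03 under the other scalings). The call of COPG1 in A375 was lost without CAP library 3 or Control library 1 (edgeR adjusted p 0.143 to 0.158).

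Whether the response differed between the lines was tested by the line by treatment interaction over the 24 libraries (edgeR, 3 degrees of freedom). All 46 genes passed, against 56.9% of 23642 genes tested. This share and those below are over genes of any level that passed the filter, scarcer ones among them. The adjusted p was smallest for SEC24D (4.24e-27), SSR1 (9.18e-24), SSR2 (4.31e-21) and SEC61A1 (1.71e-19), and largest for RPN2 (0.000127), by edgeR's quasi-likelihood test. Of the 46 genes, 43 (93.5%) rose in at least 1 line and fell in at least 1 other, against 44.5% of the 14240 genes tested in all 4 lines. The genes that rose in A375 and fell in Hth83 numbered 30 (65.2%), against 4.61%. On deposited and on exon-length TPM, 19 and 22 of the 46 did so. Over all 14240 genes the log2 fold changes in A375 and Hth83 had a Pearson r of 0.36, the highest of any pair of lines. Over the 46 genes it was 0.20, so the opposite calls do not reflect opposite orders of the genes. The direction was lower in Cal27, higher in A375 and lower in Hth83 in 16 genes (34.8%, against 1.93%), a count that was 0 on deposited and 4 on exon-length TPM. Not 1 of the 46 rose in all 4 lines or fell in all 4, against 1.35% and 1.29% of the 14240 genes.

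Cal27 and Fadu, both squamous lines, moved apart gene by gene. Called in both lines in opposite directions were 20 of the 46 genes (43.5%, against 22.9% of 14240 genes), and 5 were called in the same direction (10.9%, against 12%). COPB2, LMAN1, SEC23A, SEC24B, SEC24C, SPCS3, SSR1 and STT3B rose in Cal27 and fell in Fadu, and all 8 were called so with library size alone and on both TPM scales too. The Cal27 call of COPB2 among them was lost without CAP library 1, 2 or 3 or Control library 2 (edgeR adjusted p 0.0624 to 0.244). The 12 that fell in Cal27 and rose in Fadu included SEC13, SEC61B, SSR2 and SSR4, which were also called so on exon-length TPM, where 5 genes had that pattern, against 1 on deposited TPM. Across the 46 genes, which are not independent replicates, the log2 fold changes in Cal27 and Fadu had a Pearson r of -0.62 and a Spearman rho of -0.60, against -0.02 and -0.10 over 14240 genes. The 2 lines share no libraries, and the Pearson r over the 46 genes was -0.64 to -0.62 under the other scalings.

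**Figure D4:**
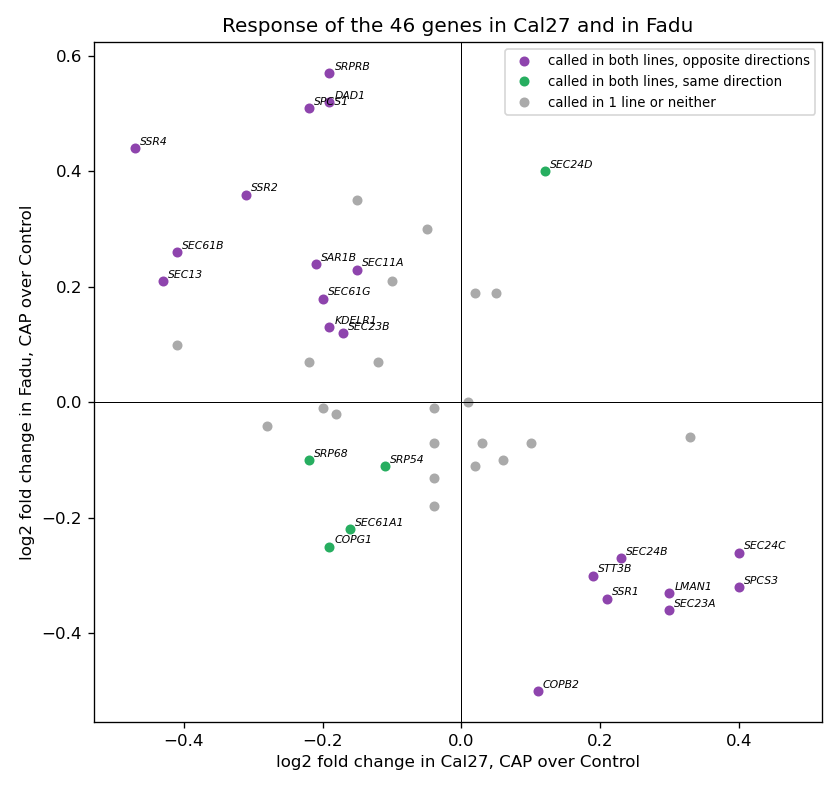
Log2 fold change, CAP over Control, of each of the 46 genes in Cal27 (horizontal axis) and Fadu (vertical axis); purple genes were called in both lines in opposite directions, green genes in both in the same direction, and grey genes in 1 line or neither. The purple genes lie in the upper left (12 genes, lower in Cal27, of which 1 keeps that place on deposited TPM) and lower right (8 genes) parts of the plot.

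The responses of all 46 genes were also set against gene length in each line. With exon length (the union of annotated exons), the log2 fold change of the 46 genes had a Pearson r of 0.47 in Cal27, -0.16 in A375, -0.37 in Fadu and -0.27 in Hth83, against 0.10, 0.07, -0.11 and 0.06 over all genes with a length. Spearman's rho was 0.48, -0.22, -0.33 and -0.24 over the 46 genes in the same order of lines, against 0.23, 0.05, -0.15 and 0.02 over all genes. In Cal27, 1 of the 23 genes at or under the median length of 5071 bases rose and 16 fell, and 10 of the 23 longer genes rose and 6 fell. In Fadu 11 of the shorter genes rose and 5 fell, and 7 of the longer ones rose and 11 fell. In Hth83 21 of the shorter and 19 of the longer genes fell, with medians of -0.45 and -0.44. A trend over all genes was also removed, on the length behind the deposited TPM, which is the genomic span and not the exon length. The median of the 46 was then -0.09 in Cal27 and 0.02 in Fadu, against -0.11 and -0.01 without that step. No trend on exon length was removed.

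**Figure D5:**
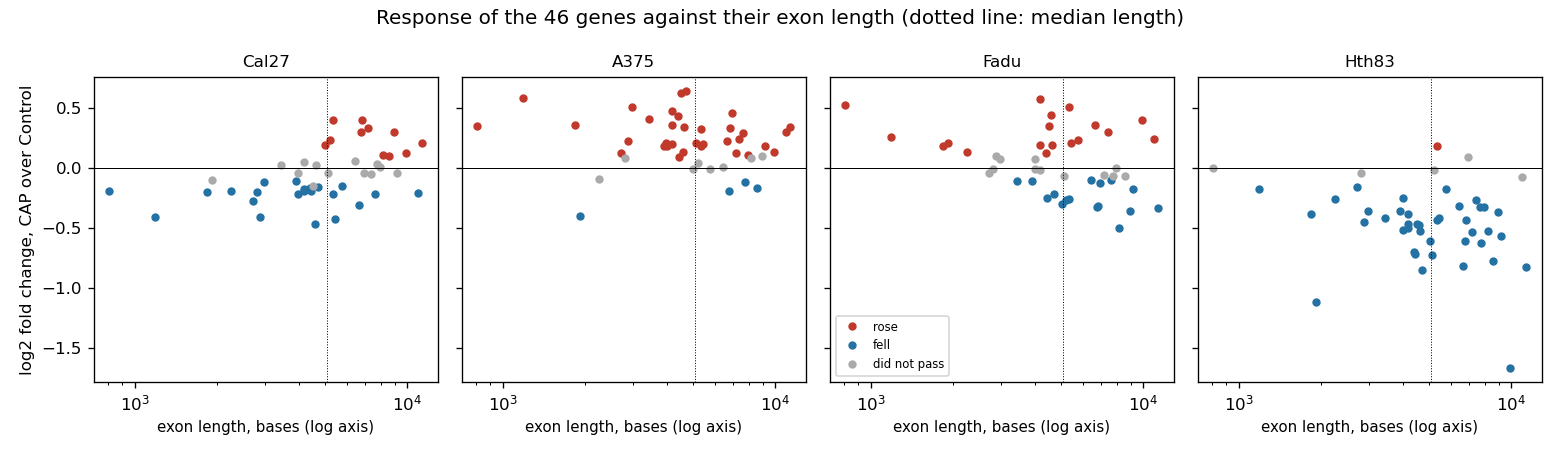
Log2 fold change, CAP over Control, of the 46 genes against exon length in bases (log axis) in the 4 lines; red genes rose, blue genes fell and grey genes did not pass, and the dotted line is the median length of 5071 bases. Most Cal27 falls (16 of 22, a number that depends on the scaling) lie left of the line, while in Hth83 blue points lie on both sides of it.

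Shares within a family of paralogs do not depend on how libraries are scaled, but they do depend on the length each gene is divided by. They are given on exon-length TPM and, in brackets, on the deposited TPM, which use the genomic span. Out of the 4 SEC24 genes, SEC24D held 12.7% ± 0.931 in CAP, against 26.6% ± 1.1 in Control libraries of Hth83 (9.61% and 20.2% on deposited TPM). Errors are SD over 3 libraries. SEC24B held 28.1% ± 0.758 in CAP, against 18.8% ± 1.1 in Control libraries of Hth83 (12.1% and 8.13% on deposited TPM). Out of the catalytic oligosaccharyltransferase subunits, STT3B held 66.2% ± 0.658 in CAP, against 74.9% ± 0.258 in Control libraries of Fadu (29.8% and 39.2% on deposited TPM). It was thus the larger of the pair in Fadu per exon length and the smaller per genomic span, and lower in CAP on both scales. Out of the SEC23 pair, SEC23A held 42.9% ± 0.424 in CAP, against 51.3% ± 1.29 in Control libraries of Fadu (51.6% and 59.9% on deposited TPM). In the other squamous line it held 20.5% ± 0.226 in CAP, against 15.7% ± 0.226 in Control libraries of Cal27 (26.7% and 20.8% on deposited TPM). The pair thus shifted in opposite directions in the squamous lines. SEC11C, out of the catalytic signal peptidase pair, held 19.7% ± 1.17 in CAP, against 13.7% ± 1.14 in Control libraries of A375 (32.3% and 23.5% on deposited TPM). It also held 45.9% ± 1.61 in CAP, against 50.9% ± 0.545 in Control libraries of Hth83 (62.2% and 66.8% on deposited TPM). Among the KDEL receptors, KDELR3 held 5.52% ± 0.339 in CAP, against 9.62% ± 0.323 in Control libraries of Hth83 (3.83% and 6.76% on deposited TPM). The groups did not overlap in these comparisons on either scale, and each gave an exact two-sided permutation p of 0.1, the smallest that 3 against 3 libraries can give, so this test cannot pass 0.05.

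Untreated cells of the 4 lines differed in some of the same genes. Exon-length TPM of the Control libraries, from tables made separately for each line, are set side by side here without a test (SD, n = 3 each). SEC24D stood at 90.4 ± 4.29 TPM in Hth83, 29.8 ± 0.701 TPM in Cal27, 23.2 ± 1.34 TPM in A375 and 6.47 ± 0.28 TPM in Fadu, a 14-fold range, the widest of the 46 genes. SSR3 had its highest level at 785 ± 6.57 TPM in Cal27 and its lowest at 125 ± 2.32 TPM in A375. SEC11C lay between 79.1 ± 2.92 TPM in Hth83 and 13.5 ± 1.05 TPM in Fadu, and LMAN1 between 424 ± 14.5 TPM in Hth83 and 88 ± 4.6 TPM in Fadu. KDELR3 stood at 58.3 ± 1.51 TPM in Hth83 and 12.9 ± 0.884 TPM in Cal27. KDELR1 (1.2-fold) and SEC24B (1.28-fold) had narrow ranges. The untreated sum over the 46 genes was highest in Hth83, the line in which 40 of them fell. The same Control libraries give the untreated level and the base of the fold change. The level and the fall are therefore not separate observations.

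The genes with and without ACGTGGC in the promoter window are described here with no test. Among the 17 genes with it, 16 fell in Hth83 (median -0.48), and among the 23 without it 19 fell (-0.33). In A375, 14 of the 17 and 15 of the 23 rose, with medians of 0.20 and 0.21. In Fadu 7 of the 17 rose and 7 fell, and 9 of the 23 rose and 8 fell. In Cal27 5 of the 17 rose and 5 fell, and 4 of the 23 rose and 14 fell, with the limit on scaling given above. SSR1, SEC24A, KDELR3 and COPB2, whose windows are printed above, had Hth83 log2 fold changes of -0.83, -0.54, -1.12 and -0.53. All 4 fell more than the median of the 17 and do not stand for the group. Its other genes ran from -0.78 (SEC63) to 0.09 (SAR1A, which did not pass).

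Among 114 other genes of the pathway, falls again outnumbered rises in Hth83 and rises outnumbered falls in A375. Of 111 tested in Hth83, 63 fell and 20 rose (median -0.20). Of 112 tested in A375, 57 rose and 13 fell (0.11, with 33 to 43 higher and 17 to 25 lower and a median of 0.02 to 0.04 under the other scalings). In Fadu 39 of 112 rose and 41 fell (-0.00, with 33 to 52 higher and 30 to 33 lower and a median of 0.01 to 0.10 under the other scalings). In Cal27 25 of 114 rose and 43 fell (median -0.07). Under the other scalings 34 to 47 were higher and 6 to 27 lower there, with a median of 0.01 to 0.12. The rises and falls were 18% and 56.8% in Hth83, against 25.9% and 24.2% of all genes tested. They were 50.9% and 11.6% in A375, against 25.7% and 24.8%. In Fadu they were 34.8% and 36.6%, against 26.3% and 27%. The Cal27 rises, at 21.9%, equalled the 21.9% of all genes, and the falls were 37.7%, against 23.2%. The Golgi tethers and SNAREs, which dock and fuse vesicles at the Golgi, fell in 17 of 23 genes in Hth83 (73.9%, against 24.2% of all genes tested, median -0.53). In A375 4 of them rose and 5 fell (17.4% and 21.7%, under the 25.7% and 24.8% of all genes tested, median -0.06, with 3 to 4 higher and 5 to 10 lower and a median of -0.14 to -0.13 under the other scalings). The enzymes that build the lipid-linked precursor of the N-glycan had 14 of 22 genes higher and 1 lower in A375 (63.6% and 4.55%, against the same shares of all genes, median 0.25, with 8 to 11 higher and 1 lower and a median of 0.15 to 0.18 under the other scalings). In Hth83 5 of them rose and 8 fell (22.7% and 36.4%, against 25.9% and 24.2% of all genes tested, median 0.01, with 6 to 7 higher and 5 to 6 lower and a median of 0.03 to 0.06 under the other scalings). MIA2, which helps to load large cargo at exit sites, had 33.5, 36.4 and 33.2 CPM in CAP libraries and 121, 116 and 137 CPM in Control libraries of Hth83 (-1.86 ± 0.06, edgeR adjusted p = 3.06e-20). GOLGB1, the giant tether known as giantin, had 169, 168 and 166 CPM in CAP libraries and 272, 282 and 297 CPM in Control libraries of Fadu (-0.76 ± 0.04, edgeR adjusted p = 4.86e-35). ARF4, a GTPase of COPI vesicles, had 242, 222 and 227 CPM in CAP libraries and 150, 155 and 158 CPM in Control libraries of A375 (0.57 ± 0.04, edgeR adjusted p = 2.16e-13).

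XBP1, which encodes a transcription factor of the unfolded protein response, was lower in CAP in all 4 lines. Its mRNA fell in Hth83 (-1.06), Fadu (-0.83), Cal27 (-0.52) and A375 (-0.43), where 34 of the 46 genes rose. In A375 XBP1 had 73.1, 70.1 and 75.5 CPM in CAP libraries and 102, 98 and 94.9 CPM in Control libraries (-0.43 ± 0.05, edgeR adjusted p = 2.48e-09). Gene counts do not separate its spliced, active form. Of 7 listed transcription factors of the pathway, 5 fell and 0 rose in Hth83 among 6 tested, and 3 rose and 2 fell in A375 among 6 tested (median -0.00, with 1 higher and 3 lower and a median of -0.09 to -0.07 under the other scalings). Cal27 had 1 rise and 3 falls among 7 tested (-0.30). The other scalings gave 1 to 2 higher, 1 to 3 lower and a median of -0.22 to 0.04 there. Fadu had 1 rise and 4 falls among 6 tested (-0.26). They gave 1 to 2 higher, 4 lower and a median of -0.23 to -0.15 for Fadu. Rises and falls were 0% and 83.3% of the factors tested in Hth83, against 25.9% and 24.2% of all genes tested. In A375 they were 50% and 33.3%, against 25.7% and 24.8%. In Cal27 they were 14.3% and 42.9%, against 21.9% and 23.2%, and in Fadu 16.7% and 66.7%, against 26.3% and 27%.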

How the data were processed

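RNA-seq libraries were made from 24 samples of 4 cell lines, 3 per group. The authors deposited a table of raw read counts and of TPM per line, with 61533 genes, and the submitters' processing notes name HISAT2 and build GRCh38, while for the counting tool, the annotation and strand the labels and notes used here state nothing. The deposited TPM divide the counts by a length that equals the genomic span of the gene in 21636 of 21636 genes whose version matches GENCODE 29 (relative tolerance 1e-06), so levels of different genes were compared with TPM recomputed from the counts and the union of GENCODE 29 exons, with shares of paralogs given on both scales. Counts were tested per line with edgeR 4.0.16 in R 4.3.3 (filterByExpr with a minimum count of 10, TMM, robust quasi-likelihood F test, Benjamini-Hochberg adjustment over all genes tested, threshold 0.05) and for a difference between lines in 1 fit of all 24 libraries. The analysis was tested on simulated data.

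The 46 genes, the 114 pathway genes and the marker lists were chosen with earlier results of these data known. Values in every library are given for the 8 genes with the smallest interaction p among those called in both directions, for the 3 largest rises and falls in each line, and, of the pathway lists, for genes with the smallest adjusted p of a direction in a line; COPE and SEC61B, which tie in Cal27 at 2 decimals, are both given. Alternatives were DESeq2 1.42.0, other size factors and filters, a fit without robust dispersion, a joint fit, a gene length correction, a replicate block, each library left out, and limma 3.58.1 on log2(TPM + 1) and log2(TPM + 0.1); exon-length TPM was added after seeing the data. Replicate libraries differed by more than sampling noise in every group. Exon bases are shared with another protein-coding gene in 17 of the 46 genes, over 10% in 2 (SPCS1 and SRPRB), and 9 have a named pseudogene, so reads there may be split.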

Additional observations from a re-analysis of the deposited data

Results flagged for a closer look

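All 46 genes had a response to CAP that differed between the 4 lines by the edgeR interaction test (largest adjusted p = 0.000127, for RPN2), against 56.9% of 23642 genes tested. The values that follow are the gap between the highest and the lowest log2 fold change of a gene over the 4 lines. In the signal recognition particle and its receptor the gap was 0.96 for SRPRB, 0.86 for SRPRA, 0.62 for SRP68, 0.53 for SRP54 and 0.37 for SRP72, and for SRPRB the lowest value was in Hth83 (-0.39) and the highest in Fadu (0.57). In the Sec61 group the gap was 1.49 for SEC61A1, 0.99 for SEC61B, 0.88 for SEC63, 0.74 for SEC61G and 0.44 for SEC62, and for SEC61A1 the lowest value was in Hth83 (-0.85) and the highest in A375 (0.64). In TRAP the gap was 1.18 for SSR2, 1.17 for SSR1, 0.92 for SSR4 and 0.87 for SSR3, and for SSR2 the lowest value was in Hth83 (-0.82) and the highest in Fadu (0.36). In signal peptidase the gap was 1.09 for SEC11C, 0.87 for SPCS2, 0.84 for SPCS3, 0.74 for SPCS1 and 0.40 for SEC11A, and for SEC11C the lowest value was in Hth83 (-0.47) and the highest in A375 (0.62). In oligosaccharyltransferase the gap was 0.80 for STT3B, 0.71 for DAD1, 0.70 for RPN1, 0.57 for STT3A, 0.40 for DDOST and 0.28 for RPN2, and for STT3B the lowest value was in Hth83 (-0.61) and the highest in Cal27 (0.19). In the COPII coat the gap was 2.07 for SEC24D, 1.12 for SEC23B, 0.87 for SEC24A, 0.84 for SEC24C, 0.75 for SEC31A, 0.68 for SEC23A, 0.64 for SEC13, 0.59 for SAR1A, 0.51 for SAR1B and 0.50 for SEC24B, and for SEC24D the lowest value was in Hth83 (-1.67) and the highest in Fadu (0.40). In the cargo receptors the gap was 0.92 for LMAN1 and 0.83 for SURF4, and for LMAN1 the lowest value was in Hth83 (-0.61) and the highest in Cal27 (0.30). In the KDEL receptors the gap was 1.32 for KDELR3, 0.46 for KDELR2 and 0.39 for KDELR1, and for KDELR3 the lowest value was in Hth83 (-1.12) and the highest in Fadu (0.21). In the COPI coat the gap was 0.94 for COPB1, 0.82 for COPG1, 0.67 for COPA, 0.67 for COPE, 0.67 for ARCN1 and 0.65 for COPB2, and for COPB1 the lowest value was in Hth83 (-0.73) and the highest in A375 (0.21).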

How the results depend on the processing

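The medians of the 46 genes in Hth83 and A375 kept their sign under every alternative run, and the median in Cal27 did not. In Cal27 the median of the 46 genes, -0.11 in the edgeR fit, was -0.02 with library size alone, -0.09 with CPM of at least 1 in 3 libraries and with the length trend removed, 0.12 on log2(TPM + 1) with or without a filter, 0.13 on log2(TPM + 0.1) and 0.07 on exon-length TPM. The Cal27 counts were 14 lower with library size alone, 23 higher and 1 lower on log2(TPM + 1) and log2(TPM + 0.1), 21 higher and 1 lower without a filter, and 22 higher and 6 lower on exon-length TPM. In A375 the median was 0.13 with library size alone, 0.11 on each TPM scale and 0.17 in the joint fit, with 21 genes called higher on deposited TPM. In Fadu the median was 0.09 with library size alone, 0.01 on deposited TPM, 0.04 on exon-length TPM and 0.02 with the length trend removed, and the genes called lower were 10 with library size alone and on exon-length TPM and 9 on deposited TPM without a filter. In Hth83 the median was -0.40 with library size alone, -0.38 on deposited TPM and -0.39 on exon-length TPM, and 2 genes were called higher with library size alone. Over all genes, the share of calls that were higher was 48.5% in Cal27 in the edgeR fit, 62.4% with library size alone, 83.4% on deposited TPM and 75.8% on exon-length TPM. In A375 it was 50.9%, 39.8%, 40.8% and 38.6% in the same order, in Fadu 49.3% and 61.8% with library size alone, and in Hth83 51.7% and 60.9% on deposited TPM. The scalings differ by construction in what they hold constant, and which is nearer the amount per cell was not tested.

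Turns of sign are listed here only for genes called in the edgeR fit, in the other fit or in both. Signs turned in Cal27 on log2(TPM + 1) for SRP54 (0.12), SRP68 (0.01), SRPRA (0.05), SRPRB (0.04), SEC61A1 (0.07), SEC61G (0.03), SPCS1 (0.01), SPCS2 (0.12), SEC11A (0.09), STT3A (0.18), RPN1 (0.01), RPN2 (0.03), DAD1 (0.05), SAR1A (0.19), SAR1B (0.02), SEC31A (0.19), SEC23B (0.07), KDELR1 (0.04), KDELR2 (0.20), COPB1 (0.19) and COPG1 (0.04). With a pseudocount of 0.1 the same genes turned, at the same values except SRP54 (0.13), SRPRB (0.05), SEC61G (0.04), STT3A (0.19), SEC31A (0.20) and COPB1 (0.20). On exon-length TPM the sign turned for SRP54 (0.06), SEC61A1 (0.01), SPCS2 (0.06), SEC11A (0.03), STT3A (0.13), SAR1A (0.13), SEC31A (0.14), SEC23B (0.01), KDELR2 (0.14) and COPB1 (0.14). In Fadu it turned with library size alone for SRP68 (0.00), SRP72 (0.01), SRPRA (0.09), SEC62 (0.10), RPN2 (0.09) and KDELR2 (0.09). Over single genes and shares, 218 values lost a call, 68 gained one, 30 shares moved and 78 turned sign under that rule. The remaining 3206 values were counted as the same, and turns of sign of genes without a call in either fit are among them.

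Without each library in turn, the medians were -0.11 to -0.07 in Cal27, 0.19 to 0.21 in A375, -0.03 to 0.02 in Fadu and -0.45 to -0.43 in Hth83. Genes called higher were 8 to 11 in Cal27, 29 to 34 in A375, 16 to 18 in Fadu and 0 to 1 in Hth83, and genes called lower were 21 to 22, 4 to 5, 12 to 17 and 40 to 40. The interaction held in 46 to 46 genes. Of 9 paralog shares on deposited TPM, a set with no background over other families, those without overlap were 4 to 6 in Cal27, 7 to 8 in A375, 6 to 7 in Fadu and 8 to 9 in Hth83. At least 1 such fit lost the calls of COPB2, SEC24D, SEC63, SPCS2 and SRP54 in Cal27, COPG1, SEC24A, SEC24D, SEC62 and SSR4 in A375, KDELR3, SAR1A, SEC23B, SRP54, SRP68 and SRP72 in Fadu, and SPCS1 in Hth83. Same-numbered CAP and Control libraries had deviations that correlated at -0.023 to 0.036. Whether they share a culture or a batch cannot be told from these values and is not in the labels. With a replicate block the genes called higher and lower were 10 and 21 in Cal27, 33 and 4 in A375, 19 and 17 in Fadu and 1 and 40 in Hth83, and 46 passed the interaction. With 3 libraries per group the exact test of the shares could not pass 0.05.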
